A study of Mus musculus with 6 samples.

Results

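The ionotropic and metabotropic receptors for glutamate and GABA are described here through 34 of their subunit genes, measured in whole mouse brain with and without TRMT1L. The genes were chosen by symbol: 4 AMPA receptor genes (Gria1 to Gria4), 7 NMDA receptor genes (Grin1, Grin2a to Grin2d, Grin3a and Grin3b), 5 kainate receptor genes (Grik1 to Grik5), the delta receptor gene Grid1, 6 metabotropic glutamate (mGlu) receptor genes (Grm2, Grm3, Grm4, Grm5, Grm7 and Grm8), 9 GABA-A receptor genes (Gabra2, Gabra3, Gabra4, Gabra5, Gabrb1, Gabrb2, Gabrg1, Gabrg3 and Gabrd) and the GABA-B receptor genes Gabbr1 and Gabbr2. All 34 were found among the 55450 genes counted, and all 34 passed the filter on low counts. The families are represented by these genes only, so a family sum or a share below refers to the listed members. The study compared 3 brain libraries from TRMT1L knockout (KO) mice with 3 from wild-type (WT) mice, described as biological triplicates. TRMT1L is a protein related to the tRNA-modifying enzyme TRMT1. The labels give neither the knockout allele nor strain, sex, age, litter or batch, and do not say whether a library came from 1 animal or a pool. RNA above 200 bp was taken from total brain, so the counts average over every region and cell type.

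Glutamate is the main excitatory transmitter of the brain and GABA the main inhibitory one. AMPA, NMDA and kainate receptors are glutamate-gated cation channels built from several subunits, and the subunit mix sets their kinetics, calcium permeability and location. GABA-A receptors are chloride channels assembled from alpha, beta and gamma or delta subunits, whereas mGlu and GABA-B receptors signal through G proteins. The RNAs of these subunits differ by brain region and cell type, and several are edited or alternatively spliced, which gene-level counts do not resolve.

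The AMPA and kainate subunits share a pore-lining loop that holds the best known edited codon of the brain, the Q/R site. The genomic codon encodes glutamine in all 9 genes, and in Gria2, and partly in Grik1 and Grik2, adenosine deamination changes its reading to arginine. The sequences are shown because the shares below count edited and unedited RNA as 1 molecule. Each run is 39 bases of the GENCODE M21 transcript (assembly GRCm38), 5′ to 3′, with the Q/R-site codon in capitals.
Gria1: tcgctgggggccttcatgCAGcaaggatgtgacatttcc
Gria2: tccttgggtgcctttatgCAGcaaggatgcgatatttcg
Gria3: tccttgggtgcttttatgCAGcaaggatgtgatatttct
Gria4: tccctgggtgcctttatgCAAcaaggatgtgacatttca
Grik1: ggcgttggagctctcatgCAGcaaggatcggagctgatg
Grik2: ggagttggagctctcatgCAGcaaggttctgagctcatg
Grik5: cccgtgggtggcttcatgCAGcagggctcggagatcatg
The capitals are codon 607 of Gria2, in exon 11 of 16 (chr3:80706911-80706913, minus strand), codon 636 of Grik1, in exon 13 of 18 (chr16:87940542-87940544, minus strand), and codon 621 of Grik2, in exon 12 of 16 (chr10:49244329-49244331, minus strand), counted from the initiator codon. The codon is CAA in Gria4 and CAG in the other 8 genes. The gene that encodes the editing enzyme of this site, Adarb1, had a log2 fold change (KO over WT) of 0.04 and an unadjusted p of 0.459 in edgeR's quasi-likelihood test.

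The libraries held between 78341827 and 89979690 reads, of which 31201119 to 36145961 were counted in genes. Trmt1l counted 1034 to 1279 reads in the WT libraries and 93 to 106 in the KO libraries (log2 fold change -3.58, SE 0.081, adjusted p = 6.95e-10 in edgeR's quasi-likelihood test over 21237 genes), which matches the genotype labels. Xist counted 1 to 6 reads and the Y-linked Ddx3y 2037 to 2556 in every library, the pattern of male mice, so the X-linked members Gria3 and Gabra3 were compared between samples of 1 sex. Summed levels of neuronal markers were 5232 to 5646 CPM (counts scaled to the library's effective total by TMM), and those of pituitary markers, a tissue that can adhere to a dissected brain, were 0.41 to 2.31 CPM. The share of mapped reads that fell in no gene was 50.3% to 52.2% in WT and 48.6% to 49.8% in KO, and the share mapping to several places was 4.61% to 5.16% in WT and 5.25% to 5.60% in KO. The share falling in several genes was 0.784% to 0.808% in WT and 0.863% to 0.909% in KO, and the share counted in genes 42.4% to 43.9% in WT and 44.1% to 44.9% in KO. None of these 4 pairs of ranges overlapped, and their part in the results below was not tested.

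To compare levels between genes, CPM were divided by the union exon length of each gene in kilobases (kb). The level spanned from 97.3 ± 1.50 CPM per kb (SD, n = 3) for Gria1 in WT to 0.18 ± 0.041 for Grin3b. By this length Gria1 stood first and Gabbr1, the ligand-binding GABA-B subunit, second at 88.3 ± 0.21, and their WT ranges were apart. Gabbr2 (50.8), Gria2 (50.7), Grin1 (48.0) and Grin2b (45.6) followed, and neighbours in this run of 4 overlapped in range. Gabrb2 (38.9), Gria4 (38.8) and Grm3 (37.7) formed the next group of overlapping neighbours, followed by Grik5 (34.3), whose range was apart from those of its neighbours on both sides. Between Grm4 (27.2) and Grin2c (23.0), 6 genes overlapped in sequence, and from Grm7 (18.8) down to Grid1 (13.9) 9 genes did. The least abundant were Grm2 (7.65), Grin3a (6.14), Grik1 (5.38), Grik4 (5.09), Gabrg3 (4.70), Grin2d (4.35), Gabrg1 (3.47), Grm8 (3.36) and Grin3b. Only 14 to 37 reads per library were counted for Grin3b, the subunit best known from motor neurons, and its level is the least precise of all members.

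**Figure D1:**
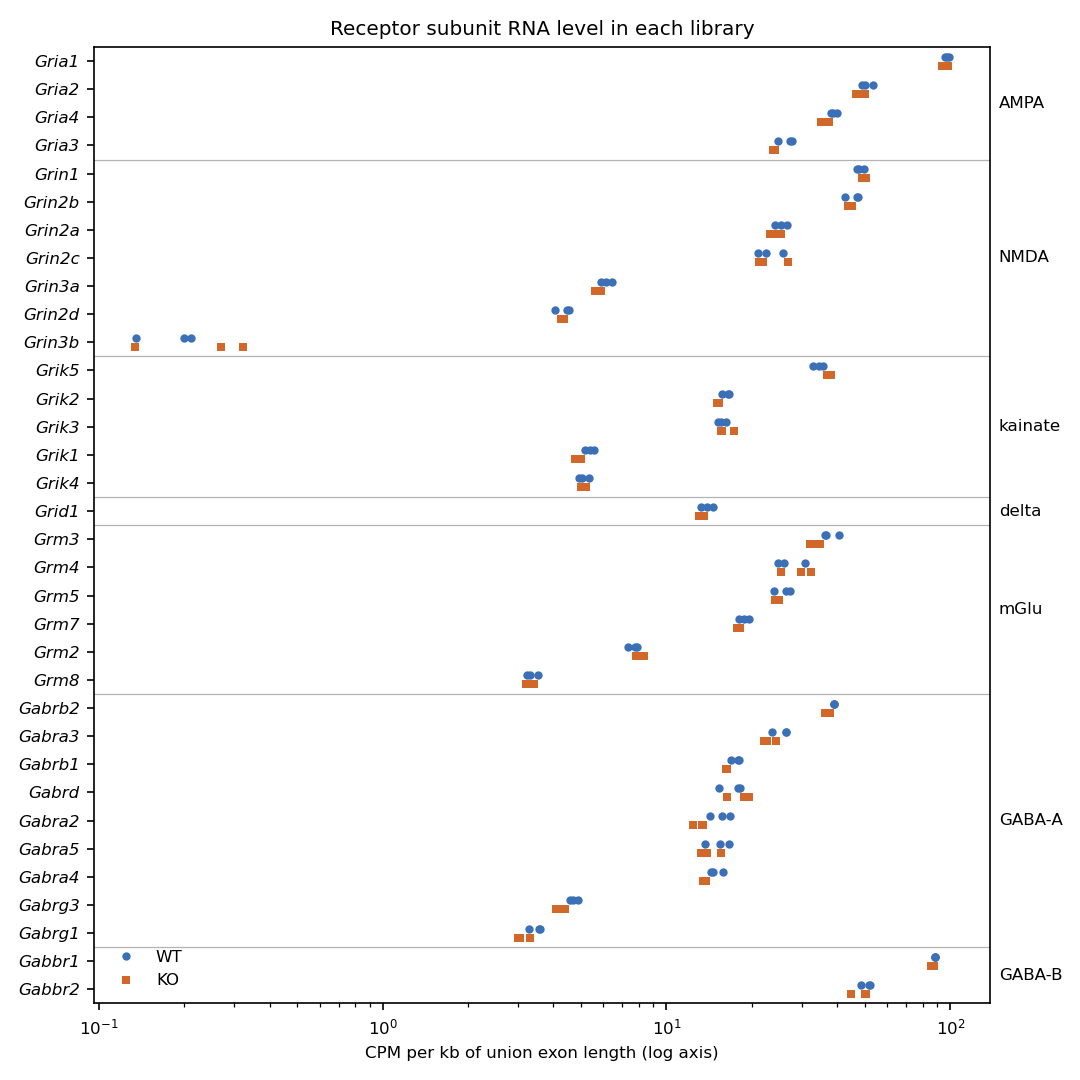
Level of each of the 34 receptor genes in CPM per kb of union exon length on a log axis, with 1 point per library (blue circles WT, orange squares KO, 3 each), grouped by receptor family. By this length Gria1 and Gabbr1 are the highest genes and Grin3b, at 0.13 to 0.32 CPM per kb, is the lowest.

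Within the AMPA family, Gria1 made up 45.6% ± 0.20 (SD, n = 3 WT libraries) of the summed level per kb, Gria2 23.8%, Gria4 18.2% and Gria3 12.4%. Of the NMDA family, the obligatory subunit Grin1 held 31.5% ± 0.81, followed by Grin2b (29.9%), Grin2a (16.6%) and the cerebellar subunit Grin2c (15.1%), with Grin3a at 4.02%, Grin2d at 2.85% and Grin3b at 0.12%. Grin1 and Grin2b overlapped in level. The kainate family was led by the high-affinity subunit Grik5 (44.7% ± 0.97), ahead of Grik2 (21.2%), Grik3 (20.4%), Grik1 (7.01%) and Grik4 (6.64%). Among mGlu genes, Grm3, an autoreceptor also found on astrocytes, held 31.3% ± 1.57, Grm4 22.6%, Grm5 21.4%, Grm7 15.6%, Grm2 6.34% and Grm8 2.79%. Of the GABA-A members, Gabrb2 held 25.5% ± 0.74, Gabra3 16.6%, Gabrb1 11.5%, Gabrd 11.2%, Gabra2 10.2%, Gabra5 9.94%, Gabra4 9.74%, Gabrg3 3.08% and Gabrg1 2.28%. Gabbr1 held 63.5% ± 0.95 of the GABA-B sum.

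The order within a family depended on which length divided the counts, because union exons include long untranslated ends that differ between genes. With the longest coding length instead, Gria2 led the AMPA family at 42.4% and Gria1 held 30.8%. Grin2b then held 43.8% against 27.9% for Grin1, Grik2 37.0% against 28.2% for Grik5, Grm5 30.2% against 18.0% for Grm3, and Gabrb1 25.9% against 24.3% for Gabrb2. Gabbr1 stayed first in its pair at 66.4%. With the longest transcript as the length, Gria1 (38.2%), Grin1 (48.1%), Grik5 (44.9%), Grm3 (25.6%), Gabrb2 (31.7%) and Gabbr1 (68.9%) were again first. Counted without strand, the share of Grin1 was 21.7%, where the antisense gene Grin1os overlaps it. The leading subunit of a family is therefore given here only for a stated length. The choice also moved some differences between KO and WT: with coding length the log2 difference of the kainate sum was 0.0070 in place of 0.041, and the share differences were 0.828 in place of 1.07 percentage points for Gria1 and -2.64 in place of -1.97 for Grik2.

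**Figure D2:**
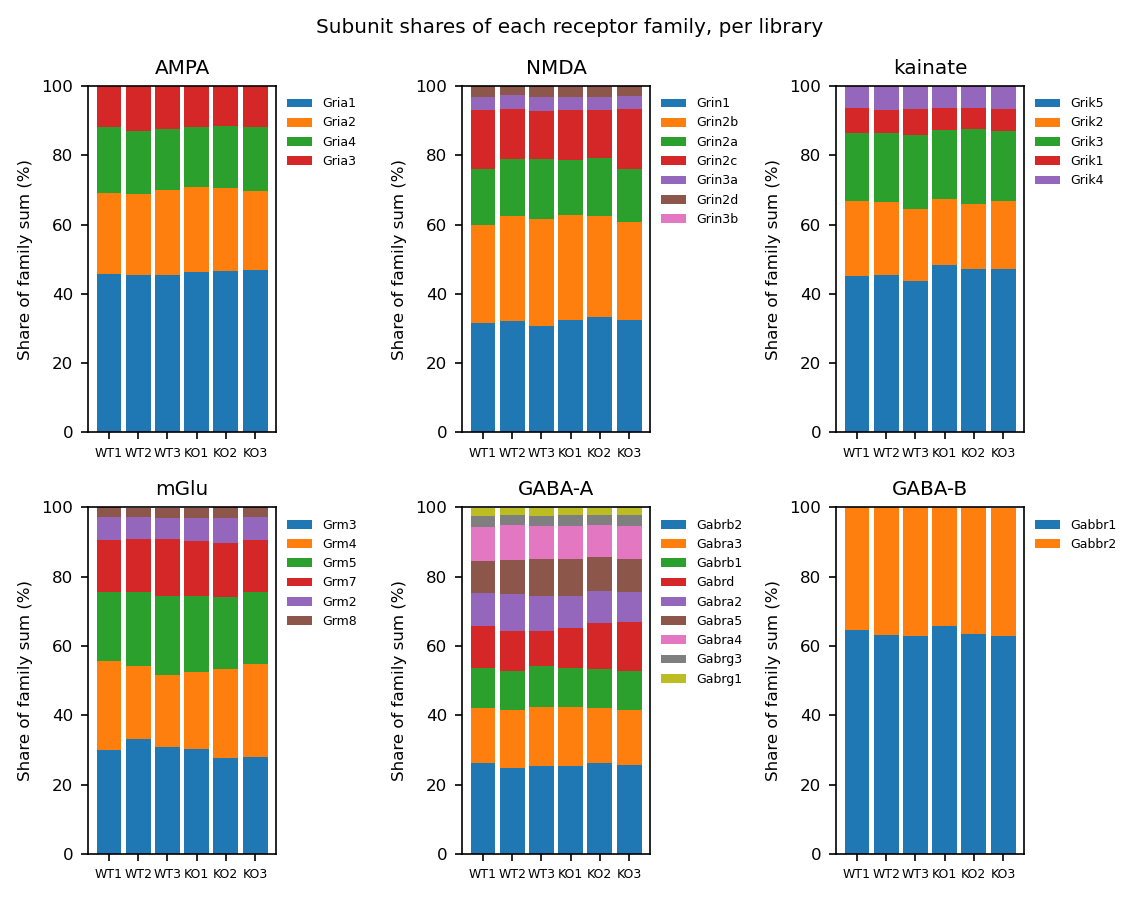
Share of each listed subunit in the summed level per kb of its family, in percent, as stacked bars with 1 bar per library (WT1 to WT3, KO1 to KO3). Grik5 is at 43.6% to 45.4% in WT and 47.1% to 48.2% in KO, while Grm4, at 20.8% to 27.0% over the 6 libraries, varies within both groups.

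Together the 34 genes took 0.741%, 0.770% and 0.765% of the counts in genes in WT libraries 1, 2 and 3 and 0.728%, 0.727% and 0.728% in KO libraries 1, 2 and 3. Every KO library lay below every WT library in this sum, to which the abundant genes contribute most. With the members weighted equally, as the median deviation of log2(CPM + 0.01) from each gene's mean, the libraries overlapped: -0.012, 0.038 and 0.070 in WT and -0.031, -0.011 and -0.044 in KO. No member passed an adjusted p of 0.05 in edgeR's quasi-likelihood test, where 2 of all 21237 genes (0.00942%) did, and the smallest adjusted p of a member was 0.576. DESeq2's Wald test called 1 member, Gabra2, and limma-voom called 0. At an unadjusted p under 0.05, 10 of the 34 members were lower in KO, against 3.38% of all genes, and 1 was higher, against 4.54%. The 3 KO libraries lay entirely below the 3 WT libraries for 11 members (6.97% of all genes) and entirely above them for 1 (7.46% of all genes). The log2 fold change was below 0 for 25 of 34 members, against 49.9% of all genes, with a median of -0.065 against 0.00013 over all genes. In bulk tissue, fewer cells that express a gene and less RNA per cell cannot be told apart. The count of 10 lower members depended on single libraries: it was 6 without WT library 2, 5 without WT library 3 and 6 without KO library 3. The members' median was -0.035 without WT library 3.

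**Figure D3:**
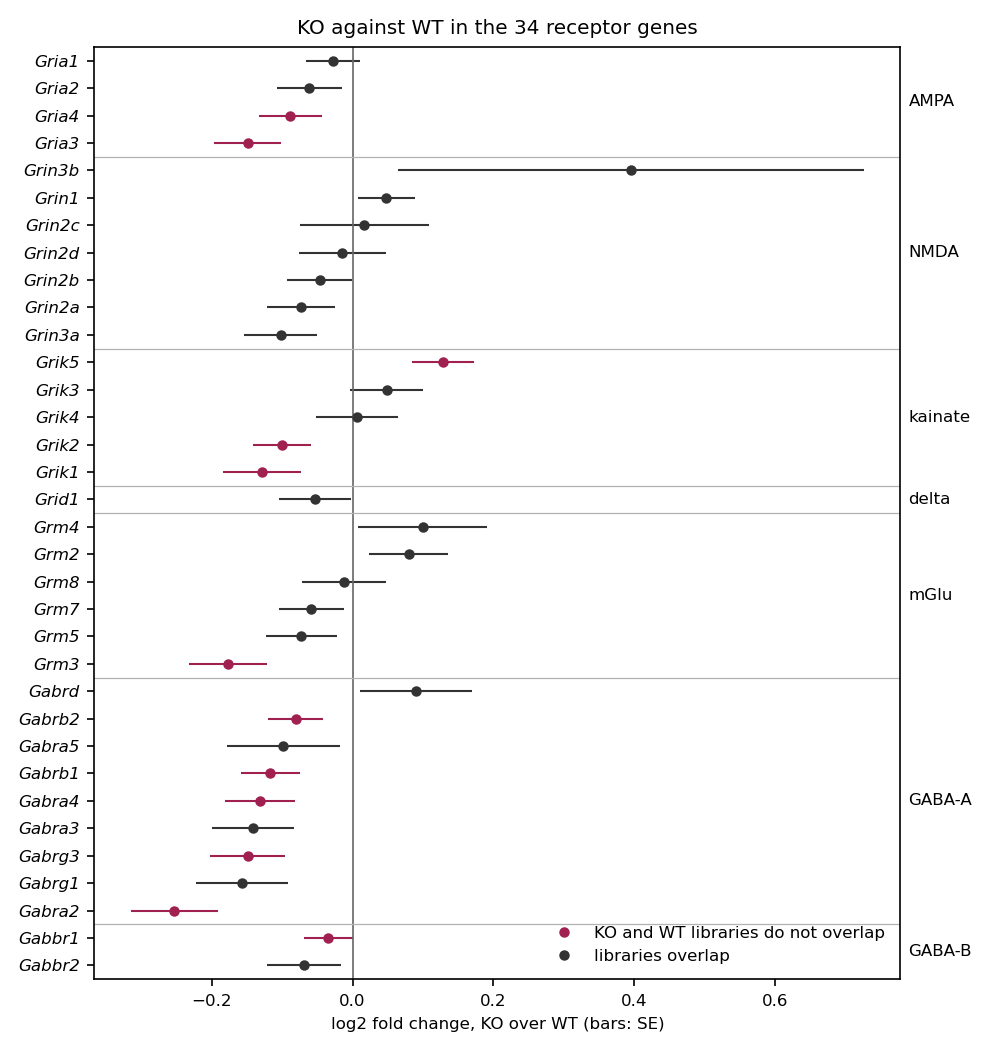
Log2 fold change (KO over WT) of the 34 receptor genes with its standard error, ordered by size within each family. Red points mark the 12 genes whose KO and WT libraries do not overlap, of which Grik5 alone lies above 0.

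Most GABA-A members had lower values in KO, although none passed adjustment in edgeR's quasi-likelihood test on filtered counts. Of the 9 genes, 8 had a log2 fold change below 0 (49.9% of all genes), with a median of -0.13. An unadjusted p under 0.05 in that direction was found for 6 (3.38% of all genes), and 5 had KO libraries entirely below WT (6.97% of all genes). Among protein-coding genes spanning 100 to 300 kb, 56.3% were below 0 and 9.48% had KO entirely below WT. For those over 300 kb the shares were 68.8% and 16.7%. The other 25 members had 17 below 0, 4 with an unadjusted p under 0.05 lower and 1 higher, and a median of -0.047. The difference between these families was not tested. The summed GABA-A level was 148, 157 and 154 CPM per kb in WT libraries 1, 2 and 3 and 144, 143 and 141 in the KO libraries, with means of 153 ± 4.40 and 142 ± 1.67 (SD, n = 3 each), a difference of -6.80%. All KO libraries lay below all WT libraries, which gave the smallest p that 3 against 3 allows (exact permutation test, two-sided, p = 0.1, adjusted over 7 families 0.28). The number of GABA-A genes with an unadjusted p under 0.05 was 3 without WT library 2 and 2 without WT library 3.

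Gabra2 encodes the alpha-2 subunit, which is concentrated at the axon initial segment and in limbic circuits. It read 109, 128 and 119 CPM in WT libraries 1, 2 and 3 and 102, 103 and 94.5 CPM in KO libraries 1, 2 and 3. The KO values were all below the WT values, with WT library 1 nearest to them, and the log2 fold change was -0.25 (SE 0.062, unadjusted p = 0.0016, adjusted p = 0.576 in edgeR's quasi-likelihood test). Gabra2 was the member with the lowest p, and its call depended on the procedure: the adjusted p was 0.0493 with DESeq2's Wald test and 0.0018 with edgeR when genes of low count were kept in the fit. Its share of the GABA-A sum was 9.62%, 10.7% and 10.2% in WT and 9.27%, 9.40% and 8.80% in KO.

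The gamma and other alpha subunits had smaller differences. Gabrg3, a gamma subunit of low abundance, read 54.4, 55.9 and 58.0 CPM in WT and 52.3, 48.5 and 50.9 in KO, without overlap (log2 fold change -0.15, SE 0.053, unadjusted p = 0.016). Gabrg1, a gamma subunit, read 28.2, 25.9 and 28.0 CPM in WT and 26.1, 23.6 and 23.9 in KO, where KO library 1 was above WT library 2 (-0.16, SE 0.066, unadjusted p = 0.035). Both genes were thus about as far from 0 as their neighbours in the family, with only Gabrg3 separating the groups. Gabra3, the X-linked alpha-3 gene, read 92.3, 103 and 103 CPM in WT and 95.6, 88.5 and 86.6 in KO (-0.14, SE 0.059, unadjusted p = 0.034), and KO library 1 exceeded WT library 1. Gabra4, which pairs with the delta subunit in extrasynaptic receptors of the forebrain, read 88.8, 95.9 and 87.1 CPM in WT and 82.6, 81.8 and 83.7 in KO (-0.13, SE 0.050, unadjusted p = 0.023). The Gabra4 groups did not overlap, but the gap between the highest KO and the lowest WT library was narrower than the spread within WT.

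The beta subunits form part of the GABA binding site. Gabrb1 read 234, 248 and 250.0 CPM in WT and 225, 226 and 225 in KO (log2 fold change -0.12, SE 0.042, unadjusted p = 0.017). Gabrb2, the most abundant GABA-A member per kb of union exon, read 247, 247 and 248 CPM in WT and 233, 239 and 229.8 in KO (-0.081, SE 0.039, unadjusted p = 0.062). Neither gene overlapped between groups, and the closest libraries were those of KO for Gabrb1 and those of WT for Gabrb2. The remaining members overlapped: Gabra5, the alpha-5 gene of hippocampal extrasynaptic receptors, ranged from 40.6 to 49.3 CPM in WT and from 39.3 to 46.2 in KO. Gabrd, the delta subunit of extrasynaptic receptors, ranged from 43.9 to 52.3 CPM in WT and from 47.1 to 56.0 in KO and was the single GABA-A member with a log2 fold change above 0 (0.09, SE 0.080, unadjusted p = 0.284).

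**Figure D4:**
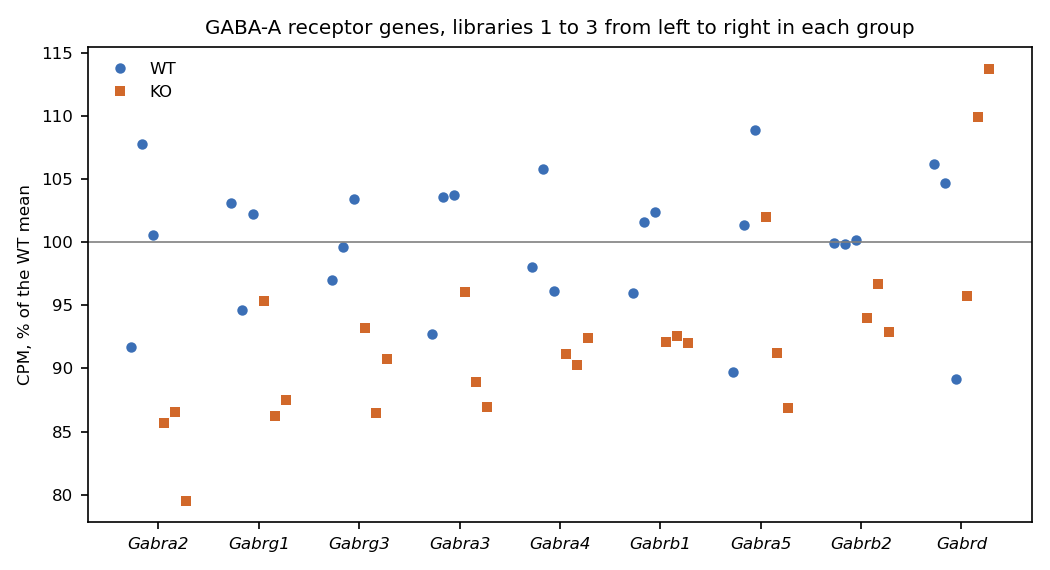
CPM of the 9 GABA-A receptor genes as a percentage of the WT mean of each gene, with 1 point per library (blue circles WT, orange squares KO, libraries 1 to 3 from left to right). For 5 genes, Gabra2, Gabrg3, Gabra4, Gabrb1 and Gabrb2, all KO points lie below all WT points.

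Gabrg1, Gabra2, Gabra4 and Gabrb1 are neighbours on chromosome 5, within chr5:70751047-72149037 (GRCm38), a stretch of 1398 kb. This grouping was noticed after the values were seen. All 4 had an unadjusted p under 0.05 and were lower in KO, against 3.38% of all genes. The same held for 2 GABA-A members elsewhere, Gabrg3 on chromosome 7 (log2 fold change -0.15) and Gabra3 on the X chromosome (-0.14). It did not hold for Gabrb2, Gabra5 and Gabrd. Another 17 tested genes lie in this stretch or within 1000 kb of it, and of these none had an unadjusted p under 0.05, 10 had a log2 fold change below 0 and the median was -0.00078. These genes are a limited reference, since 13 of the 17 had a mean under 10 CPM and the 14 outside the stretch all lie beyond its Gabrb1 end. The nearest of them, Commd8, was lower in every KO library (27.0 to 28.7 CPM in WT and 25.9 to 26.5 in KO, log2 fold change -0.096, SE 0.057, unadjusted p = 0.120). No gene of the 17 passed an adjusted p of 0.05 in edgeR's quasi-likelihood test either. Gabra4 and Gabrb1 are transcribed toward each other's start and overlap by 196 bases at their 5′ ends in GENCODE M21, and by 388 bases between the starts that RefSeq lists.

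The promoters of these 4 genes are printed because the genes lie together and all 4 had lower mean values in KO. Each run is the RefSeq window (GRCm38.p6) from 250 bases before to 50 bases after the start, 5′ to 3′ on the gene's strand, with matches to the searched motifs in capitals. The motifs were the GC box (GGGCGG), the TATA box (TATAAA), the CCAAT box (CCAAT) and the cAMP response element (TGACGTCA), on both strands, and no 2 of the printed matches overlap.
Gabrg1: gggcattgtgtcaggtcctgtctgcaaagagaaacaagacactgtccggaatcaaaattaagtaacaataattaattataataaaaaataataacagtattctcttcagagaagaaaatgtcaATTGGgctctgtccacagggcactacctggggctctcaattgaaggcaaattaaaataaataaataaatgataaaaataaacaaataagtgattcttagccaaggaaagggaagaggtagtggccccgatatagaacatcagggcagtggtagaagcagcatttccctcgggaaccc
Gabra2: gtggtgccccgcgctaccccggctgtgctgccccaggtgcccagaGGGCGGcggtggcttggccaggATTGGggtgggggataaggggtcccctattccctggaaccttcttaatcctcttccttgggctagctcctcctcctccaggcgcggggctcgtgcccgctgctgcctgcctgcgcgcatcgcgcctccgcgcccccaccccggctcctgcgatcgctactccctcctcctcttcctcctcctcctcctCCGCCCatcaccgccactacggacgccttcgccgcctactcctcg
Gabra4: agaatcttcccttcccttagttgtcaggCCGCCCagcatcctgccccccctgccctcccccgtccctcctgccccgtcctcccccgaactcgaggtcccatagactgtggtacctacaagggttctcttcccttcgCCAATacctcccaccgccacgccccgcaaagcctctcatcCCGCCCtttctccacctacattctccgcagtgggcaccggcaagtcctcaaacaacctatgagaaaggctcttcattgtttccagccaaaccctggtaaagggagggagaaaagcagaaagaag
Gabrb1: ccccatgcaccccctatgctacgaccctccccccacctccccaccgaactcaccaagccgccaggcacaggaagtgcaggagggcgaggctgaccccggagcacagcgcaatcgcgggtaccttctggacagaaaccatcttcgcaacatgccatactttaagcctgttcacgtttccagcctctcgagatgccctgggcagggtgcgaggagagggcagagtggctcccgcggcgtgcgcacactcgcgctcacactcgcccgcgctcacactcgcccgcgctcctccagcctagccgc
The windows are chr5:70842568-70842867 (minus strand) for Gabrg1, chr5:71095800-71096099 (minus strand) for Gabra2, chr5:71658259-71658558 (minus strand) for Gabra4 and chr5:71657671-71657970 (plus strand) for Gabrb1, for which RefSeq lists 2 starts and 1 is shown. They are unlike in composition: CG pairs number 3 in Gabrg1, 25 in Gabra2, 12 in Gabra4 and 25 in Gabrb1. Gabra2 and Gabra4 each hold 1 CCAAT match and 2 GC box matches, Gabrg1 holds 1 CCAAT match, and Gabrb1 holds none of the searched letters.

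A RefSeq promoter was found for 24 of the 34 members. The GC box was in 15 of these 24 (62.5%) and in 35.9% of all 27025 promoters, the CCAAT box in 8 (33.3%) and in 37.9%, the TATA box in 3 (12.5%) and in 14.2%, and the cAMP response element in 0 of 24 and in 1.88%. The median number of CG pairs in the window was 17.5 for the members and 7 for all promoters. These matches describe the letters of the windows only.

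The AMPA genes, which encode the channels of fast excitatory transmission, all had a log2 fold change below 0, with a median of -0.075. Gria3, on the X chromosome, read 245, 273 and 268 CPM in WT libraries 1, 2 and 3 and 236, 238 and 233 CPM in KO. All KO values were below all WT values (log2 fold change -0.15, SE 0.047, unadjusted p = 0.0088, adjusted p = 0.576 in edgeR's quasi-likelihood test). Gria4, which is prominent in cerebellum and in fast-spiking interneurons, read 252, 244 and 239 CPM in WT and 220.5, 236 and 234 in KO, also without overlap (-0.088, SE 0.044, unadjusted p = 0.070). Gria1 read 579.7, 586 and 598 CPM in WT and 567, 592 and 571 in KO, and its groups overlapped (-0.028, SE 0.038). Gria2, whose edited subunit makes the channel impermeable to calcium, read 757, 779 and 830.5 CPM in WT and 767, 779.6 and 722 in KO, with overlap (-0.062, SE 0.046). As a share of the family, Gria1 was 45.8%, 45.4% and 45.5% in WT and 46.4%, 46.7% and 46.8% in KO, without overlap (exact permutation test, two-sided, p = 0.1, adjusted over 33 shares 0.471). The family sum overlapped between groups (213 against 204 CPM per kb, exact permutation p = 0.2), as did the ratio of Gria1 to Gria2, 1.92 in WT and 1.96 in KO.

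The NMDA genes, whose receptors detect coincident activity, showed no member with an unadjusted p under 0.05 and none without overlap. Grin1 read 461, 483 and 453 CPM in WT and 473, 488 and 483 in KO (log2 fold change 0.05, SE 0.040, unadjusted p = 0.253). Grin2b, the subunit that predominates early in development, read 1054, 1167 and 1177 CPM in WT and 1123, 1086 and 1080.4 in KO (-0.047, SE 0.046, unadjusted p = 0.332). Both genes overlapped between groups, with the KO libraries of Grin2b inside the WT range. Grin2a, which accumulates with maturation, was between 432 and 476 CPM in WT and between 414 and 454 in KO, and the ratio of Grin2a to Grin2b per kb was 0.556 in WT and 0.545 in KO (log2 difference -0.028, exact permutation p = 0.7). Grin3a, a subunit that lowers calcium flux, was between 71.9 and 79.0 CPM in WT and between 69.0 and 72.3 in KO (-0.10, unadjusted p = 0.072), and Grin2d between 26.9 and 30.2 against 28.2 and 29.0. The level of Grin1 relative to the sum of the 4 Grin2 genes did separate the groups: the log2 ratio was -1.03, -0.99 and -1.09 in WT and -0.96, -0.91 and -0.97 in KO (0.488 against 0.518 on the linear scale, exact permutation test, two-sided, p = 0.1, adjusted over 7 ratios 0.35). The share of Grin1 in the family was likewise 30.6% to 32.2% in WT and 32.5% to 33.4% in KO.

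Members known from cerebellar granule cells varied between libraries of both groups. Grin2c read 106 to 129 CPM in WT and 107 to 135 in KO, with WT library 1 and KO library 3 the highest of their groups. The summed cerebellar markers were also highest in these libraries, at 1074 CPM in WT library 1 and 1015 CPM in KO library 3, against 854 to 922 CPM in the other 4. Grm4, a presynaptic mGlu receptor of granule cell axons, read 184, 155 and 148 CPM in WT and 151, 179 and 193 in KO, again highest in WT library 1 and KO library 3. Gabrd was highest in the same KO library (56.0 CPM) and in WT library 1 (52.3 CPM). None of these 3 genes separated KO from WT, and the part of the marker levels in their values was not tested.

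The values of the kainate genes lay on both sides of 0. Grik5 read 178, 184 and 170.0 CPM in WT libraries 1, 2 and 3 and 196, 195 and 191 CPM in KO. All KO libraries were above all WT libraries (log2 fold change 0.13, SE 0.044, unadjusted p = 0.013, adjusted p = 0.579 in edgeR's quasi-likelihood test), which no other member showed. Grik2, a principal channel-forming subunit, read 218, 220.3 and 208 CPM in WT and 202, 199.7 and 202 in KO (-0.10, SE 0.041, unadjusted p = 0.032). Grik1, another channel-forming subunit, read 36.2, 34.8 and 37.3 CPM in WT and 33.6, 32.0 and 33.5 in KO (-0.13, SE 0.056, unadjusted p = 0.040). In both genes the KO libraries lay below the WT libraries. Grik3 was between 136 and 145 CPM in WT and between 140.2 and 155 in KO, and Grik4, the other high-affinity subunit, between 29.3 and 31.8 against 29.7 and 31.1, both with overlap.

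Because Grik5 forms channels only together with a subunit such as Grik2, their ratio was compared directly. The log2 ratio of Grik2 to Grik5 per kb was -1.07, -1.10 and -1.06 in WT and -1.32, -1.32 and -1.27 in KO. The KO values were lower by 0.23 on average, several times the SD within either group (0.018 and 0.029), which on the linear scale is 0.474 against 0.405. The p of this difference was 0.1 by the exact permutation test, the floor for groups of 3, and 0.35 once adjusted over 7 ratios. The share of Grik5 in the family was 45.1%, 45.4% and 43.6% in WT and 48.2%, 47.1% and 47.3% in KO, that of Grik2 20.9% to 21.5% against 18.9% to 19.6%, and that of Grik1 6.62% to 7.37% against 5.95% to 6.40%. The family sum overlapped between groups (76.7 against 78.9 CPM per kb, exact permutation p = 0.2).

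Grid1, which encodes a delta receptor that organises synapses rather than conducting in response to glutamate, read 78.7, 86.8 and 83.0 CPM in WT and 77.6, 80.5 and 81.1 in KO. The groups overlapped (log2 fold change -0.054, SE 0.051, unadjusted p = 0.315).

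Of the mGlu genes, Grm3 was the 1 that separated the groups. It read 109.9, 124 and 111 CPM in WT and 106, 97.9 and 102 in KO, every KO library being lower (log2 fold change -0.18, SE 0.056, unadjusted p = 0.0082, adjusted p = 0.576 in edgeR's quasi-likelihood test). Astrocyte markers, summed, overlapped between groups (1181 to 1236 CPM in WT and 1166 to 1306 in KO), but their 6 genes differed among themselves. The water channel gene Aqp4 was lower in every KO library (197 to 221 CPM in WT and 175 to 195 in KO, log2 fold change -0.17, SE 0.054, unadjusted p = 0.010), and Aldh1l1 was higher in every KO library (50.4 to 56.1 against 57.7 to 61.5 CPM, 0.18, SE 0.056, unadjusted p = 0.0088). Gfap was 248 CPM in KO library 3 and 115 to 140.2 CPM in the other 5 libraries. These markers were singled out after their values were seen, and their part in the Grm3 values was not tested. Grm5, the postsynaptic receptor coupled to calcium release, was between 245 and 279.7 CPM in WT and between 247 and 255 in KO. The presynaptic receptor Grm7 was between 106 and 115 against 105 and 107, and Grm8, also presynaptic, between 31.8 and 35.0 against 31.8 and 33.9. All 3 overlapped between groups. Grm2, an autoreceptor at glutamate terminals, was between 35.8 and 38.4 CPM in WT and between 38.2 and 40.9 in KO, and its share of the mGlu sum was 6.14% to 6.49% in WT and 6.76% to 7.21% in KO, without overlap. The ratio of Grm5 to Grm3 was 0.685 in WT and 0.737 in KO and overlapped.

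The GABA-B receptor needs both of its subunits to signal. Gabbr1 read 684, 687 and 685 CPM in WT and 666, 678 and 664 in KO; the KO libraries were all lower, by 2.35% on average (log2 fold change -0.034, SE 0.035, unadjusted p = 0.353). Gabbr2 read 323, 347 and 349 CPM in WT and 299.8, 335 and 336 in KO, with overlap (-0.069, SE 0.053). The ratio of Gabbr1 to Gabbr2 was 1.74 in WT and 1.78 in KO (exact permutation p = 0.6).

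Among the 7 family sums, only that of GABA-A was without overlap. Of 33 subunit shares, 7 did not overlap between groups: Gria1, Grin1, Grik5 and Grm2 were higher in KO and Grik1, Grik2 and Gabra2 lower. Shares of 1 family sum to 100%, so these are not independent of each other. Of 7 ratios, 2 did not overlap, Grik2 to Grik5 and Grin1 to the Grin2 sum. These 2 ratios reuse genes whose shares are counted above and are not independent of those shares. All sums, shares and ratios without overlap gave exact permutation p = 0.1 and none passed adjustment. Of all single genes tested, KO lay entirely above WT for 7.46% and entirely below for 6.97%.

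Genes that act with the receptors were taken from 8 lists with 63 genes, all of which were tested. None passed an adjusted p of 0.05 in edgeR's quasi-likelihood test, in limma-voom or in DESeq2's Wald test, which gave an adjusted p to 58 of the 63, and in edgeR's test 7 of 63 had an unadjusted p under 0.05 and were higher in KO (4.54% of all genes), 1 was lower (3.38% of all genes), and the median log2 fold change was 0.025, or -0.00098 without KO library 2. In the list of 18 glutamate receptor scaffolds, which anchor receptors in the postsynaptic density, 2 were below 0, against 49.9% of all genes, 4 had an unadjusted p under 0.05 and were higher, and the median was 0.10. Shank3 read 224, 229 and 232 CPM in WT and 235, 263 and 274 in KO, without overlap (0.17, SE 0.055, unadjusted p = 0.0094, adjusted p = 0.576). The most abundant scaffold per kb, Shank1, read 883, 970.5 and 973 CPM in WT and 970.0, 1054 and 1012 in KO, with overlap (0.10, SE 0.048).

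The list of 7 genes for GABA synthesis, packaging and uptake had 1 with an unadjusted p under 0.05. This was Slc32a1, the vesicular GABA transporter, at 75.0, 63.9 and 74.3 CPM in WT and 87.1, 81.3 and 80.8 in KO, without overlap (0.23, SE 0.065, unadjusted p = 0.0050, adjusted p = 0.576). Its direction was opposite to that of 8 of the 9 GABA-A genes. Slc6a11, the astrocytic GABA transporter and the highest of this list per kb, was between 257 and 290.3 CPM in WT and between 272 and 285 in KO. With edgeR and no filter on low counts, 3 partner genes passed an adjusted p of 0.05, among them Slc32a1 (0.0131) and Shank3 (0.0447).

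In the other lists few genes stood apart. Of 13 AMPA receptor auxiliary and trafficking genes, 1 had an unadjusted p under 0.05, higher in KO, and the highest per kb, Nsf, which recycles receptors, was between 654 and 700.3 CPM in WT and between 661 and 684 in KO. Of the 2 kainate auxiliary genes, Neto2 read 94.8, 91.2 and 95.9 CPM in WT and 84.2, 82.8 and 89.2 in KO, without overlap (-0.14, SE 0.049, unadjusted p = 0.015). Neto2 was therefore on the same side as Grik1 and Grik2. Of 4 CaM kinase II genes, 1 had an unadjusted p under 0.05, higher in KO, and Camk2a, the highest, overlapped (1447 to 1806 against 1556 to 1663 CPM). No gene had an unadjusted p under 0.05 among 6 GABA-A scaffold and auxiliary genes, 4 GABA-B auxiliary genes (Kctd12, 121 to 129 against 115 to 134 CPM) or 9 glutamate handling genes (Glul, 1075 to 1111 against 1049.6 to 1282 CPM).

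Levels of cell type markers were compared beside these values. Of 13 marker lists, the summed level was apart between groups for 2, the forebrain excitatory neuron list (758 to 815 CPM in WT and 817 to 828 in KO) and the choroid plexus list (308 to 363 and 368 to 440.2). Both were higher in KO. Of all single genes tested, 7.46% lay entirely above WT in KO and 6.97% entirely below. Inhibitory interneuron markers were 808 to 896 CPM in WT and 839 to 909 in KO, striatal neuron markers 334 to 356 and 328 to 345, and oligodendrocyte markers 4074 to 4498 and 3495 to 4197. No marker passed adjustment in edgeR's quasi-likelihood test on filtered counts, and the part of cell composition in the receptor values was not tested.

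Receptor genes are long, and gene length went with the fold change over protein-coding genes, a relation looked at after the values were seen. Among the tested protein-coding genes, the type to which all members belong, the share with a log2 fold change below 0 was 32.3% for those spanning under 10 kb from start to end, 40.4% at 10 to 30 kb, 51.0% at 30 to 100 kb, 56.3% at 100 to 300 kb and 68.8% for the 545 genes over 300 kb. Their median log2 fold change was 0.054 in the shortest class and -0.035 in the longest. Over genes of every type the share did not rise in every step: it was 50.2%, 43.0%, 52.0%, 57.4% and 69.8% from the shortest to the longest class. Of the members, 14 span over 300 kb, of which 13 were below 0 with a median of -0.071, and 9 span 100 to 300 kb, of which 8 were below 0 with a median of -0.10. The 11 shorter members were mixed, with 4 below 0. The KO libraries lay entirely below WT for 16.7% of protein-coding genes over 300 kb and for 2.98% of those under 10 kb. Gabra2 and Grm3, the members with the lowest fold changes, span 138 and 240 kb. The part of gene length in the members' values was not tested.

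**Figure D5:**
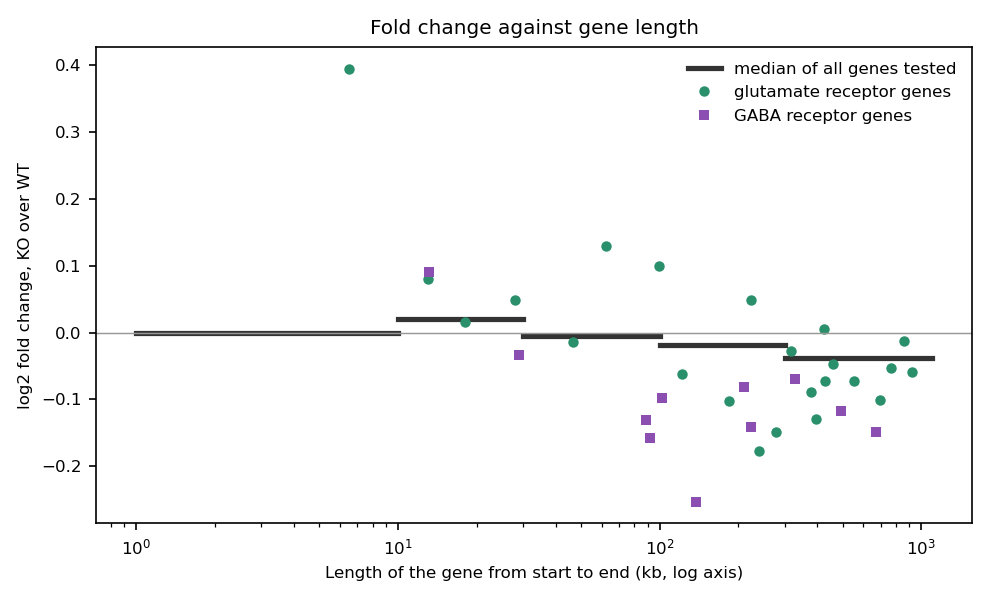
Log2 fold change (KO over WT) against gene length from start to end in kb, on a log axis, for the glutamate receptor genes (green circles) and GABA receptor genes (purple squares). Horizontal bars give the median of all tested genes, of every type, in each length class. It is -0.00029 under 10 kb, highest at 10 to 30 kb (0.020) and lowest over 300 kb (-0.038). Of the 11 GABA receptor genes, 10 lie below 0.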

How the data were processed

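Long RNA from total mouse brain was sequenced in 3 WT and 3 TRMT1L KO libraries. Reads were trimmed with cutadapt 1.9.1 and aligned with STAR 2.7.0f, per the submitters' processing notes; the genome build is not given in the sources used here. The authors deposited whole-number counts per gene without normalization, and the 55450 gene identifiers are those of GENCODE M21 (GRCm38). The fourth column was used, since it held 94.6% to 94.8% of the stranded counts. Reads in no gene (48.6% to 52.2% of mapped reads), in several genes (0.784% to 0.909%) or at several places were left out, so RNA of near-identical copies is undercounted.

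Counts were filtered (filterByExpr), scaled (TMM) and tested with edgeR 4.0.16 in R 4.3.3, KO against WT, with Benjamini-Hochberg adjustment over 21237 genes and a threshold of 0.05. Standard errors of log2 fold changes were derived from the F statistic. Levels per kb, family sums, shares and ratios were compared by exact two-sided permutation tests, which with 3 against 3 cannot go below 0.1. Alternatives were DESeq2 1.42.0, limma 3.58.1 (voom), other scaling, filters, lengths and strand, a replicate block and leaving out each library. The edgeR step was tested on simulated data.

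The members, the partner and marker lists and the rule for named genes were chosen with earlier results of these data known. By that rule values in every library are given for the 2 highest members of a family per kb and for those with an unadjusted p under 0.05 or separate groups. Of each partner list the highest gene per kb is named, with any of unadjusted p under 0.01. For 1 list that gene is not reported here.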

Additional observations from a re-analysis of the deposited data

How the results depend on the processing

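Over the alternatives, 24 to 26 of the 34 receptor genes and 8 of 9 GABA-A genes had a log2 fold change below 0, and the members' median was between -0.089 (without WT library 1) and -0.035 (without WT library 3). The number of members past an adjusted p of 0.05 was 0, except 1 with DESeq2's Wald test, which gave an adjusted p to 33 of 34 members, and 1 without a filter on low counts, in both cases Gabra2 (log2 fold change -0.25 in both). Of the partner genes 3 passed without a filter. The cause was not tested. With the replicate block, 0 members were called, 8 had an unadjusted p under 0.05 (11 without it) and the median was -0.066. The deviations of same-numbered libraries had correlations of -0.058 to 0.040, and those of other pairs ranged from -0.10 to 0.13. These values cannot decide whether same-numbered samples share a litter or batch. For sums, shares and ratios the block cannot go below p = 0.25 (exact sign permutation), so it says nothing about their stability.

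Leaving out each library in turn, members lower at an unadjusted p under 0.05 numbered 5 to 10, GABA-A genes among them 2 to 6, families without overlap 1 to 4, shares 8 to 14 and ratios 2 to 4; with fewer libraries, groups separate more easily. Families without overlap numbered 3 with total counts as the scale and 2 with DESeq2 size factors. The leading shares in WT by longest transcript and by coding length were 38.2% and 30.8% for Gria1, 48.1% and 27.9% for Grin1 (21.7% unstranded), 25.6% and 18.0% for Grm3, 31.7% and 24.3% for Gabrb2 and 68.9% and 66.4% for Gabbr1, and 28.2% by coding length for Grik5. The direction of 5 genes near 0 turned when a library was left out, with log2 fold changes from -0.099 to 0.10 for Grin2c, -0.063 to 0.018 for Grin2d, -0.0012 to 0.075 for Grik3, -0.020 to 0.040 for Grik4 (-0.0043 with total counts) and -0.041 to 0.028 for Grm8.

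With 3 libraries a group, standard errors ran from 0.035 (Gabbr1) to 0.33 (Grin3b) on the log2 scale.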
